A study of Mus musculus with 4 samples.

Results

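The 10 genes described here encode the high-affinity receptor for IgE and the proteins that act next to it, and they were taken from the deposited table of 55401 genes by symbol. They are 3 receptor chains, Fcer1a, Ms4a2 and Fcer1g, and 7 genes of the signalling machinery, Syk, Lyn, Lat, Lcp2, Btk, Plcg1 and Plcg2. Each symbol matched in the table. RNA sequencing covered 4 libraries, 2 from cells given daidzein, an isoflavone of soy known as a ligand of oestrogen receptors, and 2 from cells given the solvent DMSO. All 4 came from cells that the labels call female germline stem cells, from the ovary of C57BL/6 mice, in the labels' normal condition and in medium with serum, leukemia inhibitory factor and growth factors. The age of the mice, the dose and duration of daidzein and the origin of replicates from separate cultures are not stated in the labels. Each p-value therefore rests on the spread between the libraries, which may be technical. The question put to these genes is whether their transcripts differ between daidzein and DMSO.

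The high-affinity IgE receptor is best known from mast cells and basophils, where antigen that cross-links bound IgE sets off degranulation. Its alpha chain, from Fcer1a, holds IgE outside the cell. The beta chain, from Ms4a2, and a dimer of the gamma chain, from Fcer1g, carry the tyrosine motifs that start the signal. The kinase Lyn phosphorylates these motifs, Syk docks on them, and Syk then phosphorylates the scaffolds Lat and SLP-76, the product of Lcp2. The scaffolds gather the kinase Btk and the phospholipases Plcg1 and Plcg2, which release calcium. In the mouse the alpha chain is needed to bring the receptor to the surface.

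The receptor chains and the machinery stood at very different levels, and no read of the IgE-binding chain was seen in daidzein or DMSO libraries. Fcer1a had 0 reads in all 4 libraries, Ms4a2 had 49 to 79 reads, and Fcer1g had 457 to 509. Each gene of the machinery had between 1211 and 10405 reads per library. Of the 9 members with enough reads to test, 0 passed an adjusted p of 0.05 between daidzein and DMSO by the quasi-likelihood test of edgeR, adjusted by Benjamini and Hochberg over 11700 genes, of which 0.0171% passed.

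The promoter windows of 4 members are shown because these genes span the range from no read to the highest level of the set. They run from 250 bases before to 50 bases after the transcript start, in the RefSeq annotation of GRCm38.p6, 5′ to 3′ on the strand of the gene. Capitals mark matches, on either strand, to the letters GATA preceded by A or T and followed by A or G, a form that GATA transcription factors are known to bind.
Fcer1a, chr1:173227180-173227479, minus strand: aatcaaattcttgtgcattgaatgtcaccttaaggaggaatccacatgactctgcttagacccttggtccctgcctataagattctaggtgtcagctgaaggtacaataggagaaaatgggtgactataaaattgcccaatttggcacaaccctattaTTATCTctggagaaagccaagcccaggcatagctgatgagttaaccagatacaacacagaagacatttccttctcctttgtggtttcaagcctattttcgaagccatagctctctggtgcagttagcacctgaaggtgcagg
Ms4a2, chr19:11623670-11623969, minus strand: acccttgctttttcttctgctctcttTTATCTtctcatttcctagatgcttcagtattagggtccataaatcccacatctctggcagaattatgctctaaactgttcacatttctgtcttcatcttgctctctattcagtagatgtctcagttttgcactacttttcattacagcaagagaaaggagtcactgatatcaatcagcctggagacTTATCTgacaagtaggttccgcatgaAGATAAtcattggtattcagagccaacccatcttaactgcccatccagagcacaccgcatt
Fcer1g, chr1:171234300-171234599, minus strand: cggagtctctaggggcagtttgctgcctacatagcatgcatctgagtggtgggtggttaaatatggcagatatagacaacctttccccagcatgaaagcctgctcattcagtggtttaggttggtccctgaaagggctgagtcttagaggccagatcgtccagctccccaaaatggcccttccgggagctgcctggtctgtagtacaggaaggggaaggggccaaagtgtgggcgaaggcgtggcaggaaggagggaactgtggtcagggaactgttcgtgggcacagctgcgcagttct
Lcp2, chr11:34046678-34046977, plus strand: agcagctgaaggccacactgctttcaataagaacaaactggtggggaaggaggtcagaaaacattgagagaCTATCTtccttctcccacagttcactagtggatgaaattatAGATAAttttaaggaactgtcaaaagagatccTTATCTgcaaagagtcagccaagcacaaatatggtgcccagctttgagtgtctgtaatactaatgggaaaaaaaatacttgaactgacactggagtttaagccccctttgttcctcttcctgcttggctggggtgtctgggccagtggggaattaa

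Windows were found for 9 of the 10 members, 10 windows in all, since Syk has 2 and none was matched for Lyn. The GATA letters were in 5 of the 10 windows, against 29.8% of 32851 windows of all genes. Fcer1a had 1 match, starting at position -92 from the transcript start, and Ms4a2 had 3, at -224, -37 and -11. Lcp2 also had 3, at -179, -138 and -106, while the window of Fcer1g had none. The letters were thus in the windows of the least and of the most abundant member. Gata2, the gene of a GATA factor of blood cells, was at 245 and 235 FPKM in daidzein libraries and at 255 and 241 FPKM in DMSO libraries. The letters GAGGAA, a form that ETS factors are known to bind, were in 5 windows on either strand, against 28.3% of all windows. GGGCGG, the GC box, was in 2, against 35.7%. The GC content was 43.7% for Fcer1a and 41.0% for Ms4a2, against 55.7% for Fcer1g and a median of 52.7% over all windows. These matches are descriptions of the sequence and do not show binding.

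Deposited counts summed to 17192077 and 18537134 in daidzein libraries and to 16230400 and 17119625 in DMSO libraries. The markers of the labelled cell type were nearly absent. Of 10 germ cell markers, 7 had at most 3 reads over all libraries. Zbtb16, the most abundant, was at 0.74 and 0.88 FPKM with daidzein and 0.80 and 1.03 FPKM with DMSO, and Ifitm3 had 1 and 0 reads with daidzein against 4 and 0 with DMSO. Of 10 mast cell markers, 5 were at 1 FPKM or more. Cpa3, a carboxypeptidase of mast cell granules, was at 509 and 483 FPKM with daidzein and 469 and 464 FPKM with DMSO, while the granule protease genes Tpsb2, Tpsab1 and Mcpt4 had 0 reads. Of the 8 T cell and 6 B cell markers, 0 reached 1 FPKM, and the most abundant, Cd247 and Cd79a, had at most 7 reads and 4 reads in any library. Of the 7 eosinophil and 6 stromal markers, 0 reached 1 FPKM either. The eosinophil list was led by Siglecf, with 11 and 20 reads with daidzein and 20 and 10 with DMSO, and by Epx, and the stromal list by Pdgfra, with at most 10 reads in a library, and Col1a2. Fewer cells of a type and less RNA per cell cannot be told apart in such bulk libraries.

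**Figure D1:**
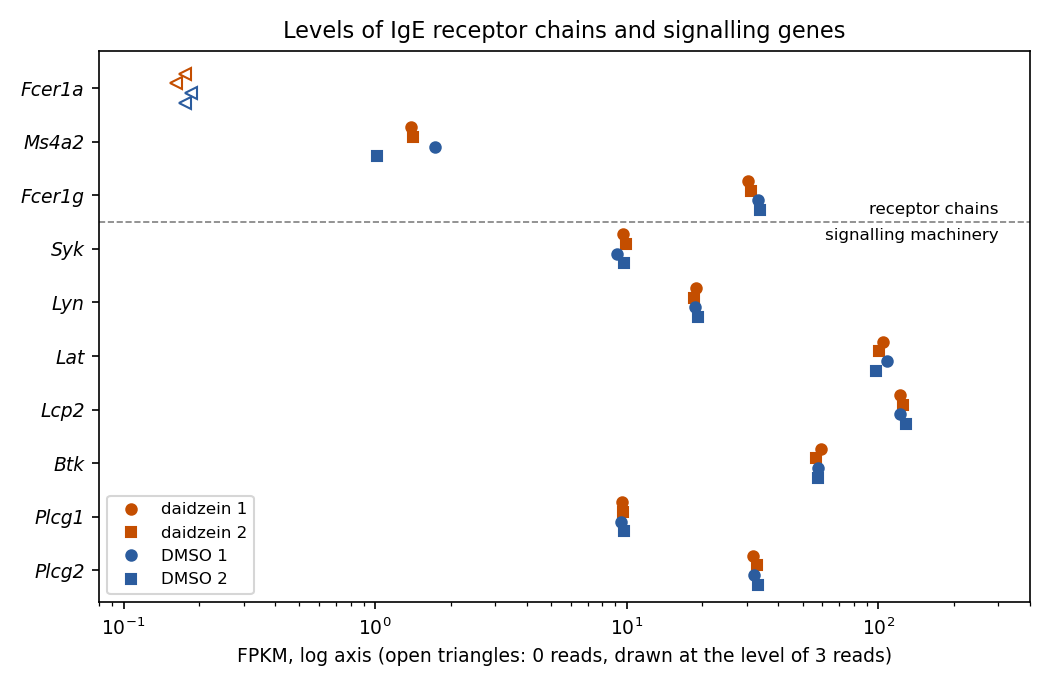
FPKM of the 10 genes (rows, log axis) in each of the 4 libraries, daidzein in orange and DMSO in blue. Fcer1a, with 0 reads, is drawn at the level of 3 reads, Ms4a2 sits between 1.02 and 1.73 FPKM, and the machinery spans 9.16 to 128.73 FPKM.

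Fcer1a, the alpha chain (ENSMUSG00000005339, GRCm38 chromosome 1, 173221284 to 173227214, minus strand), was without a read, with counts of 0 and 0 for daidzein and 0 and 0 for DMSO. A floor of 3 reads was set for a count of 0. On its 998 exonic bases this is 0.175 and 0.162 FPKM in daidzein libraries and 0.185 and 0.176 FPKM in DMSO libraries. The 95% Poisson interval of a count of 0 reaches higher, to 3.69 reads. Per length that is 0.215 and 0.199 FPKM in daidzein libraries and 0.228 and 0.216 FPKM in DMSO libraries. The interval covers counting error only. A difference between the groups was therefore not detectable at this depth. No transcript of another gene matched the longest Fcer1a transcript at 95% identity over any length that the search reported, and no annotated gene overlaps it. The 3 protein-coding genes on either side of it, Olfr1406, Olfr218, Olfr1404, Olfr418, Mptx2 and Ackr1, also had 0 reads in every library.

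Ms4a2, the beta chain that amplifies the signal (ENSMUSG00000024680, GRCm38 chromosome 19, 11615523 to 11623719, minus strand), was detected at a low level. It had 67 and 74 reads with daidzein and 79 and 49 with DMSO. Per length this was 1.39 and 1.42 FPKM with daidzein and 1.73 and 1.02 FPKM with DMSO. The daidzein libraries lay between the DMSO libraries, so the groups overlapped. The 95% Poisson interval, which covers counting error only, was 1.07 to 1.76 and 1.11 to 1.78 FPKM in daidzein libraries and 1.37 to 2.16 and 0.753 to 1.35 FPKM in DMSO libraries. The fold of daidzein over DMSO was 1.02, with a 95% interval of 0.714 to 1.47, an unadjusted p of 0.888 and an adjusted p of 1.00 by edgeR. Its log2 fold of 0.04 became 0.47 when DMSO replicate 1 was left out and -0.31 when DMSO replicate 2 was, so its direction rests on which DMSO library is used. Among the 21 genes of the Ms4a family in the table, a family of membrane proteins clustered on chromosome 19, Ms4a2 was the 1 gene above 1 FPKM. Ms4a3, next to it, had 2 and 3 reads with daidzein and 1 and 5 with DMSO, and Ms4a6d, on its other side, had 1 and 0 with daidzein and 2 and 5 with DMSO. The remaining 18 family members had 0 reads, among them Ms4a1, which encodes the B cell antigen CD20.

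Fcer1g, the gamma chain (ENSMUSG00000058715, GRCm38 chromosome 1, 171229572 to 171234365, minus strand), is shared with Fc receptors for IgG and with several other receptors. It was the 1 abundant chain of the receptor, at 30.4 and 31.2 FPKM with daidzein and 33.3 and 34.0 FPKM with DMSO. Its groups did not overlap, with both daidzein libraries below both DMSO libraries. The fold was 0.915, with a 95% interval of 0.799 to 1.05, an unadjusted p of 0.187 and an adjusted p of 1.00 by edgeR, so the difference did not pass. Between the chains, Fcer1g was 22.0-fold above Ms4a2 per length in both daidzein libraries, and 19.3-fold and 33.4-fold above it in the DMSO libraries. Against the floor of 3 reads for Fcer1a, Fcer1g was 174-fold and 193-fold higher in daidzein libraries and 180-fold and 194-fold higher in DMSO libraries. These folds leave out the counting error of both genes, so they are not lower bounds.

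**Figure D2:**
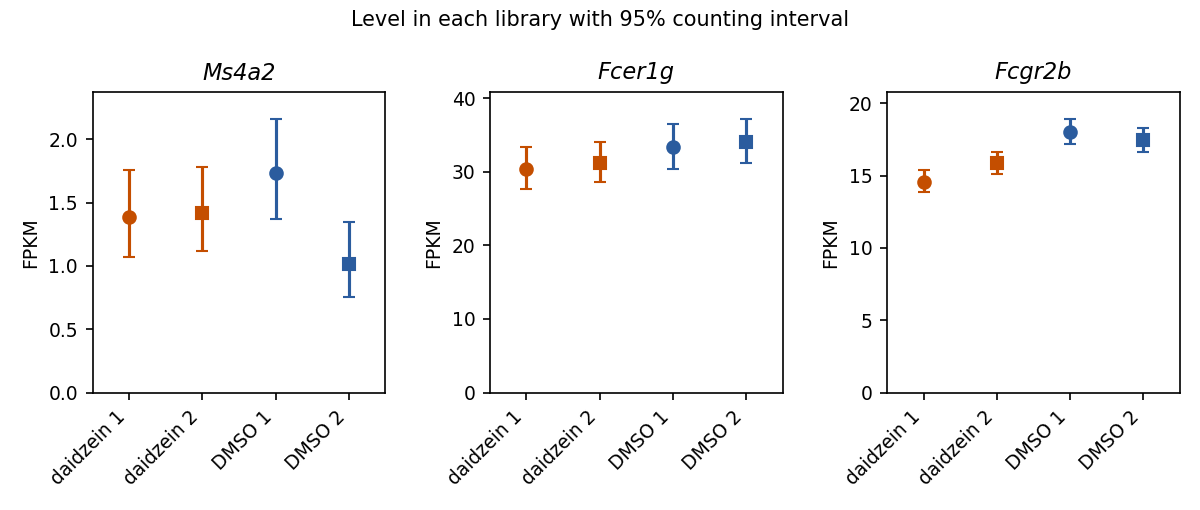
FPKM of Ms4a2, Fcer1g and Fcgr2b in each library (daidzein in orange, DMSO in blue), with the 95% Poisson interval of the count, which covers counting error only. The daidzein libraries lie between the DMSO libraries for Ms4a2 and below them for Fcer1g and Fcgr2b.

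The kinases came next in the pathway. Lyn, the Src-family kinase that starts the signal (ENSMUSG00000042228, chromosome 4), was at 18.8 and 18.5 FPKM with daidzein and 18.7 and 19.3 FPKM with DMSO. Syk, the kinase that docks on the gamma chain (ENSMUSG00000021457, chromosome 13), was at 9.69 and 9.91 FPKM with daidzein and 9.16 and 9.78 FPKM with DMSO. In neither gene did the FPKM values of the groups separate. Btk, the Tec-family kinase that activates phospholipase C (ENSMUSG00000031264, chromosome X), was higher, at 59.3 and 56.4 FPKM with daidzein and 57.58 and 57.45 FPKM with DMSO. The DMSO libraries lay between the daidzein libraries for Btk. Syk had the largest fold of the machinery, 1.04, with a 95% interval of 0.940 to 1.14, an unadjusted p of 0.461 and an adjusted p of 1.00 by edgeR. The fold was 0.981 for Lyn and 1.01 for Btk. The Lyn transcript shares a stretch of 1050 bases with Gm11787 at 95% identity or more, so its count is uncertain there. Gm11787 had 1 read over all libraries.

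The scaffold genes were the most abundant of the set. Lcp2, encoding the adaptor SLP-76 (ENSMUSG00000002699, chromosome 11), was at 122 and 126 FPKM with daidzein and 122 and 129 FPKM with DMSO. Lat, encoding the membrane scaffold on which the complex forms (ENSMUSG00000030742, chromosome 7), was at 105 and 101 FPKM with daidzein and 108 and 97.7 FPKM with DMSO. In both genes the 2 groups overlapped. The fold was 0.986 for Lcp2, with a 95% interval of 0.914 to 1.06, and 0.999 for Lat, with an interval of 0.916 to 1.09, each with an adjusted p of 1.00 by edgeR. Together they made up 63.7% and 64.0% of the summed FPKM of the machinery with daidzein, and 64.5% and 63.6% with DMSO. Mean levels over the 4 libraries placed Lcp2 above 97.6% and Lat above 97.0% of the 19575 genes with a read. Lcp2 overlaps 4930469K13Rik on the opposite strand over 45376 bases, and that gene had 1 or 2 reads per library. Without the strand setting of the counting, reads there cannot be assigned between the 2 genes.

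Plcg2, the phospholipase C isoform found mainly in blood cells (ENSMUSG00000034330, chromosome 8), was at 31.8 and 33.1 FPKM with daidzein and 32.0 and 33.2 FPKM with DMSO. Plcg1, the broadly expressed isoform (ENSMUSG00000016933, chromosome 2), was at 9.55 and 9.67 FPKM with daidzein and 9.50 and 9.74 FPKM with DMSO. Groups overlapped for both isoforms, and Plcg2 was above Plcg1 in every library. The folds of daidzein over DMSO were 0.995 for Plcg2 and 0.999 for Plcg1. Plcg1 overlaps Zhx3 on the opposite strand, which had 195 to 234 reads per library. Without the strand setting of the counting, reads in the shared stretch cannot be assigned between them.

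Ordered by mean FPKM over all libraries, the set ran from Lcp2 through Lat, Btk, Plcg2, Fcer1g, Lyn, Syk, Plcg1 and Ms4a2 to Fcer1a. The ranges over the 4 libraries overlapped for the neighbours Plcg2 and Fcer1g and for the neighbours Syk and Plcg1. All other neighbours in this order had ranges that did not overlap. FPKM divides by the exonic length in the table, so the order depends on those lengths. The genes nearest to Ms4a2 by the root mean square difference of log2(FPKM + 1) over the 4 libraries were Dubr, at 0.05, and H4c4, at 0.08. For Fcer1g they were Dnajb1, at 0.03, and Ddx23, at 0.04. Fcer1a is among 35826 genes of the table with 0 reads in every library, so none is named for it.

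**Figure D3:**
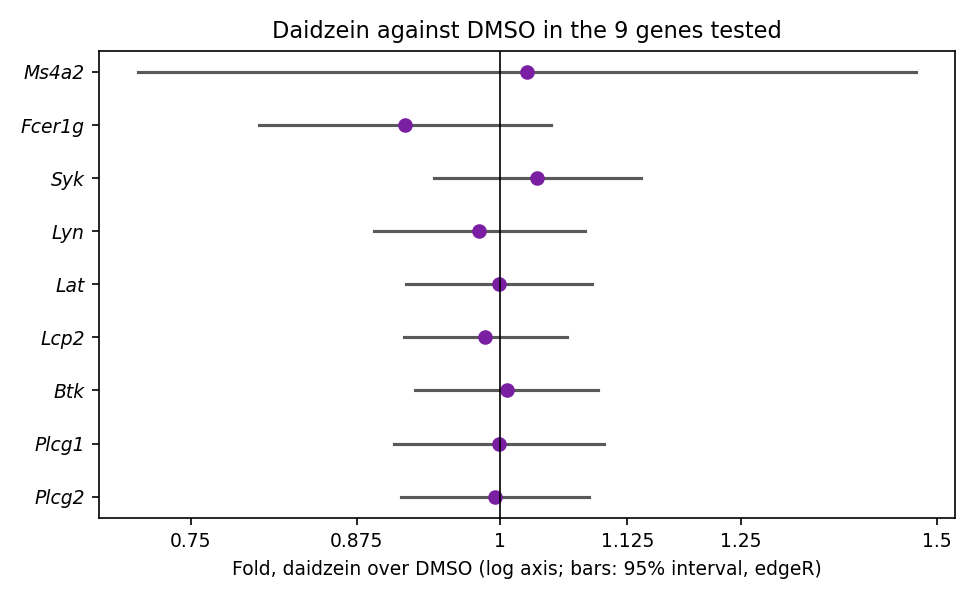
Fold of daidzein over DMSO (log axis) with 95% intervals from edgeR for the 9 genes tested. The intervals of the 7 genes of the machinery lie between 0.889 and 1.14, and those of Ms4a2, 0.714 to 1.47, and Fcer1g, 0.799 to 1.05, are wider.

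Across the set, 0 of 9 members passed by edgeR, 0 had an unadjusted p under 0.05, and DESeq2 called 0, with 0 under an unadjusted p of 0.05. The 2 genes that edgeR called among all 11700 tested were Fos and Fosb. Of the 9, 3 were higher and 6 lower with daidzein, with a median log2 fold of -0.0019, against -0.0027 over all genes tested. By normalized CPM the groups did not overlap for 2 of the 9, Fcer1g, which was lower, and Syk, which was higher, against 29.7% of all genes tested. By FPKM the Syk values overlapped. For the machinery the folds ran from 0.981 to 1.04, and the 95% intervals together covered 0.889 to 1.14. A missed threshold does not show that daidzein and DMSO libraries were alike. It leaves changes within those intervals undecided.

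Summed over the chains, receptor FPKM was 31.80 and 32.65 with daidzein and 35.07 and 35.04 with DMSO. The machinery summed to 356 and 354 FPKM with daidzein and 358 and 356 FPKM with DMSO. The ratio of receptor to machinery was 0.0908 ± 0.0019 in daidzein libraries and 0.0983 ± 0.0003 in DMSO libraries (SD, n = 2 each), a ratio between groups of 0.924. Both daidzein ratios were below both DMSO ratios. Fcer1g held 95.6% and 95.7% of the receptor sum with daidzein and 95.1% and 97.1% with DMSO, and without it the ratio between groups was 1.03. The sum is a score over chosen genes, so no test was run on it.

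The receptors that use the gamma chain gave a mixed picture. Of 17 genes for such receptors, other Fc receptors and the related adaptor Tyrobp, 6 were at 1 FPKM or more, and 8 had at most 3 reads in all. Fcgr3, an activating IgG receptor that signals through the gamma chain, was at 26.0 and 25.3 FPKM with daidzein and 25.9 and 26.2 FPKM with DMSO. Fcgr3 was thus near the level of Fcer1g itself, where the IgE-binding chain had no read. Tyrobp was at 16.2 and 16.1 FPKM with daidzein and 20.0 and 16.2 FPKM with DMSO. Fcer2a, the low-affinity IgE receptor, had 0 and 0 reads with daidzein and 0 and 1 with DMSO. Gp6, the platelet collagen receptor that pairs with the gamma chain, had 0 reads. Among the 7 tested, 4 lay above and 3 below DMSO, 0 passed, and the median log2 fold was 0.03. Clec4d, a lectin receptor of myeloid cells, was at 5.93 and 4.69 FPKM with daidzein and 4.39 and 3.69 FPKM with DMSO. Its fold was 1.31, with an unadjusted p of 0.0388 and an adjusted p of 1.00 by edgeR, and its log2 fold of 0.39 was 0.21 without daidzein replicate 1.

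Fcgr2b, the inhibitory IgG receptor that restrains IgE signalling when both are engaged, had the smallest unadjusted p among all the listed genes. It was at 14.6 and 15.9 FPKM with daidzein and 18.0 and 17.5 FPKM with DMSO, so the groups did not overlap. The fold was 0.859, with a 95% interval of 0.779 to 0.946, an unadjusted p of 0.00396 and an adjusted p of 1.00 by edgeR, so it did not pass over all genes. Its transcript shares a stretch of 512 bases with Fcgr3 at 95% identity or more, so counts of the 2 genes are uncertain there. The 8 macrophage and monocyte markers were also lower as a sum, at 120 to 129 CPM with daidzein against 134 to 136 CPM with DMSO. Most of that sum was Adgre1, at 36.0 and 39.0 FPKM with daidzein and 40.4 and 40.5 FPKM with DMSO, followed by Cd68, at 2.82 and 1.89 FPKM with daidzein and 2.55 and 3.16 FPKM with DMSO. In no library did Csf1r exceed 2 reads, and C1qa, C1qb and Ly6c2 had 0. Adgre1 had an unadjusted p of 0.0976 by edgeR and did not pass after adjustment. A link between these markers and the Fcgr2b difference was not tested.

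Of 20 listed negative regulators, 18 were at 1 FPKM or more. Csk, the kinase that restrains Src-family kinases, was at 117 and 113 FPKM with daidzein and 117 and 108 FPKM with DMSO. Ptpn6, the phosphatase SHP-1, was at 107 and 102 FPKM with daidzein and 105 and 108 FPKM with DMSO, and Inpp5d, the lipid phosphatase SHIP-1, was at 25.7 and 26.5 FPKM with daidzein and 25.4 and 26.0 FPKM with DMSO. Groups overlapped for these 3 genes. Pag1, an adaptor that brings Csk to the membrane, had 0 reads in all libraries. Of 19 tested, 10 were higher and 9 lower, 0 passed, and the median log2 fold was 0.02. Lilrb4a, an inhibitory receptor of mast cells, was at 0.86 and 1.24 FPKM with daidzein and 1.45 and 1.42 FPKM with DMSO. Its fold was 0.733, with an unadjusted p of 0.0290 and an adjusted p of 1.00 by edgeR. The log2 fold of Lilrb4a, -0.45, was -0.22 without daidzein replicate 1 and -0.73 without daidzein replicate 2, and its count is uncertain, since its near-identical copy Lilr4b matched it at 95% identity or more over at least 50% of its transcript.

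**Figure D4:**
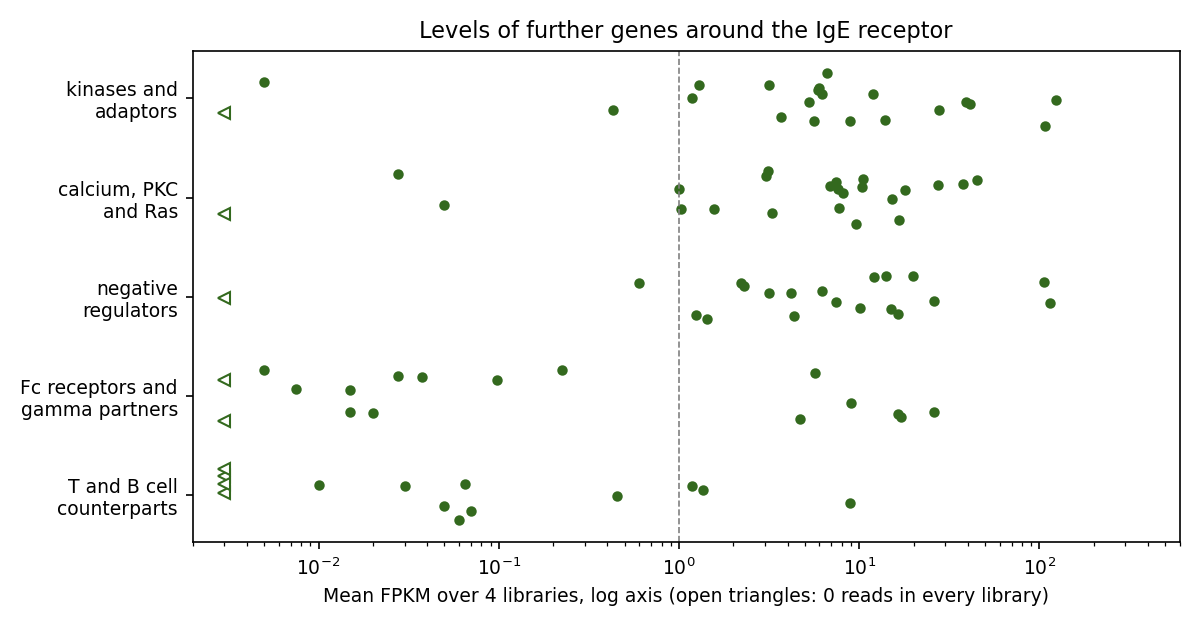
Mean FPKM over the 4 libraries (log axis) for genes of 5 lists, 1 point per gene, with genes with 0 reads in every library as open triangles. Most kinases, adaptors, calcium genes and negative regulators sit above 1 FPKM (dashed line), while most Fc receptors and most T and B cell counterparts sit below it.

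Further kinases and adaptors of the receptor were mostly present. Of 21 listed, 18 were at 1 FPKM or more. Grb2, the adaptor that links Lat to Ras, was at 125 and 118 FPKM with daidzein and 123 and 125 FPKM with DMSO. Clnk, an adaptor related to SLP-76, was at 112 and 108 FPKM with daidzein and 104 and 103 FPKM with DMSO, so its groups did not overlap. Lat2, a relative of Lat in mast cells and B cells, was at 40.1 and 40.1 FPKM with daidzein and 43.0 and 40.7 FPKM with DMSO. The Lat2 groups did not overlap either, with daidzein lower. By normalized CPM the groups did not overlap for 8 of the 19 genes tested in this list, against 29.7% of all genes tested. The same count was 6 of 20 in the calcium, protein kinase C and Ras branch and 6 of 19 in the negative regulators. It was 2 of 7 in the list of Fc receptors and gamma chain partners and 2 of 4 in the T cell and B cell counterparts. Of the Src-family kinases beside Lyn, Fgr had 1 read over all libraries, while Fyn was at 5.99 and 5.12 FPKM with daidzein and 5.42 and 5.88 FPKM with DMSO. Among 19 tested, 10 were higher and 9 lower, 0 passed, and the median log2 fold was 0.02. The smallest unadjusted p values were 0.0776 for Nck1, an adaptor to the actin skeleton with a fold of 1.14, and 0.140 for Clnk, with a fold of 1.06. The log2 fold of Nck1, 0.19, was 0.04 without daidzein replicate 1 and 0.33 without daidzein replicate 2, and that of Clnk, 0.09, was 0.05 without daidzein replicate 1.

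Downstream of the phospholipases, 19 of 23 genes of the calcium, protein kinase C and Ras branch were at 1 FPKM or more. Ppp3r1, the regulatory subunit of calcineurin, was at 44.4 and 45.7 FPKM with daidzein and 44.9 and 45.6 FPKM with DMSO. Dgkz, a kinase that removes diacylglycerol, was at 34.2 and 38.3 FPKM with daidzein and 39.4 and 39.0 FPKM with DMSO, and Nfatc1, a transcription factor that calcineurin activates, was at 25.4 and 28.1 FPKM with daidzein and 28.1 and 28.4 FPKM with DMSO. Of the exchange factors that load Ras, Rasgrp1 had 0 reads in every library and Rasgrp4, which is known from mast cells, was at 18.4 and 17.5 FPKM with daidzein and 18.2 and 17.5 FPKM with DMSO. Of 20 tested, 13 were higher and 7 lower, 0 passed, and the median log2 fold was 0.02. Prkca, a calcium-dependent protein kinase C, was at 7.06 and 7.38 FPKM with daidzein and 6.14 and 6.79 FPKM with DMSO. Its fold was 1.117, with an unadjusted p of 0.0467 and an adjusted p of 1.00 by edgeR, and its log2 fold of 0.16 was 0.10 without DMSO replicate 1. Dgkz had a fold of 0.923 with an unadjusted p of 0.0686, and its log2 fold of -0.12 was -0.04 without daidzein replicate 1 and -0.19 without daidzein replicate 2.

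The T cell and B cell counterparts of these proteins were largely silent. Of 14 listed, 3 were at 1 FPKM or more. Zap70, the T cell counterpart of Syk, had 4 and 2 reads with daidzein and 0 and 4 with DMSO, and Blnk, the B cell counterpart of Lcp2, had 0 reads. Txk, a Tec-family kinase, was at 1.28 and 1.29 FPKM with daidzein and 1.42 and 1.42 FPKM with DMSO, and Grap2, a partner of SLP-76, was at 0.89 and 1.34 FPKM with daidzein and 1.22 and 1.29 FPKM with DMSO. Lck, the T cell Src-family kinase, had 15 and 26 reads with daidzein and 25 and 25 with DMSO. Of 4 tested, 0 were higher and 4 lower with daidzein, 0 passed, and the median log2 fold was -0.16, with unadjusted p from 0.241 for Txk. Without daidzein replicate 1 these 4 genes were 2 higher and 2 lower. The fold of Lck was 0.764 with an unadjusted p of 0.322, and its log2 fold of -0.39 was -0.10 without daidzein replicate 1 and -0.77 without daidzein replicate 2.

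**Figure D5:**
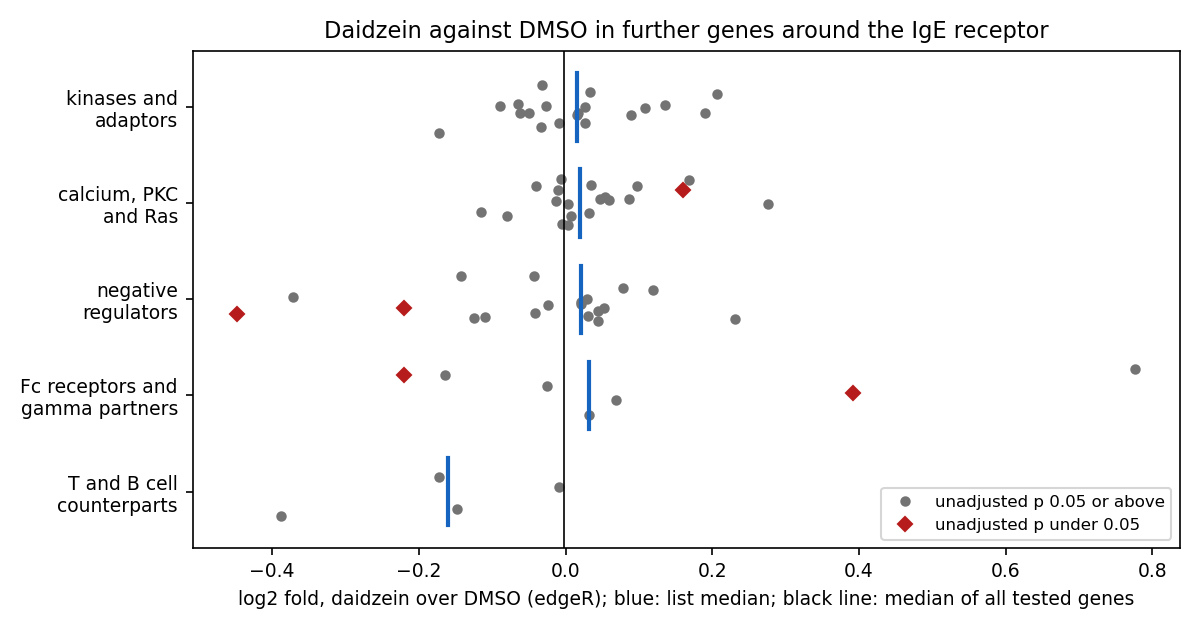
Log2 fold of daidzein over DMSO by edgeR for the genes tested in the 5 lists, 1 point per gene, with the list median in blue and the median of all genes tested, -0.0027, as a black line. Red diamonds mark the genes with an unadjusted p under 0.05, and 0 passed after adjustment over all genes.

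Counting each gene of the 5 lists once, 92 genes were listed, 66 were tested, and 37 were higher and 29 lower with daidzein. Of all 11700 genes tested, 5697 were higher and 6003 lower. No test was run on these directions. An unadjusted p under 0.05 was found for 4 of the 66, against 2.91% of all genes tested, and 0 of the 66 passed after adjustment by edgeR. Groups did not overlap in normalized CPM for 23 of the 66, against 29.7% of all genes tested. Other blood lineages had the following levels. The basophil markers, led by Cd200r4 and Il3ra, summed to 21.9 and 24.3 CPM with daidzein and 19.41 and 21.03 CPM with DMSO, in order of size. The platelet and megakaryocyte markers, led by Itga2b and Pf4, summed to 229 and 231 CPM with daidzein and 234.6 and 251.4 CPM with DMSO, likewise in order of size.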

How the data were processed

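The 2 daidzein and 2 DMSO RNA sequencing libraries were grouped by their titles. For each library the authors deposited a column headed by its name, taken here as read counts, and a column headed FPKM. All 65326 FPKM values with a read (100%) lay within 0.01 of the count scaled to the deposited exonic length and the library total. Tools named are DESeq2, HTSeq 0.6.1 and HISAT2 2.0.1, and the build named is mm9, per the submitters' processing notes, without their roles. The coordinates match GRCm38: of 55141 genes found in GENCODE M21 by identifier, 99.6% had the same start. The strand setting is not given in the sources used here. Reads that match several places may be missing or split. For the 107 symbols on several rows, the row of highest count was used.

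The test was that of edgeR 4.0.16, run in R 4.3.3 (quasi-likelihood F test, TMM, filterByExpr, Benjamini-Hochberg over 11700 genes, threshold 0.05), after a test of the steps on simulated data. Normalized CPM uses TMM. All 10 members are named; of each list the 3 most abundant genes and the 2 with the smallest p, of each marker list the 2 most abundant, and 2 genes nearest to each receptor chain. Any further gene was picked with its values in view. A few genes are not reported here. Members and lists were chosen with earlier results of these data known, so no list was tested as a set. Levels between genes are compared by FPKM. Alternatives were DESeq2 1.42.0, RLE factors, other filters, the replicate block, each library left out, and limma 3.58.1 trend on log2(FPKM + 1) and log2(FPKM + 0.1). With 2 libraries per group an exact permutation test cannot go below a two-sided p of 0.333. Near-identical transcripts were searched with blastn 2.17.0. All 6 library pairs differed by more than sampling noise, at a chi-square per degree of freedom of 2.23 to 4.81. Each library was counted as 1 replicate, although this spread does not show that the libraries come from separate cultures. Promoter windows come from RefSeq (GRCm38.p6).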

Additional observations from a re-analysis of the deposited data

How the results depend on the processing

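The count of genes called over the whole table, 2 by edgeR, was also 2 by DESeq2 and with RLE factors. With every gene that had a read it was 11, and 1 with a filter of 5 CPM, and 0 by limma on log2(FPKM + 1), on log2(FPKM + 0.1) and without a filter, with 461, 456 and 854 genes at an unadjusted p under 0.05. It ran from 4 to 17 with each library left out, which assumes that the single library left in a group varies as the other group does. The replicate block gave 27. No label gives same-numbered libraries a shared batch. With 2 libraries per group, deviations from the group mean mirror each other, so the 2 pairs give a single correlation, which was 0.09. By chi-square per degree of freedom of their counts, the same-numbered libraries were the closest of the 6 library pairs, at 3.51 and 2.23, against 4.05 to 4.81 in the others. This is a hint from the data and not from the design, so the numbers were not read as a pairing.

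Members called stayed at 0 under all 12 alternatives, the replicate block included, and 0 genes of the 5 lists were called under any of them. Of 107 recomputed log2 folds of members, 14 changed sign, none past the threshold, and the largest of these was the -0.31 of Ms4a2 without DMSO replicate 2. Directions in the calcium, protein kinase C and Ras branch, 13 higher and 7 lower, were 8 higher and 12 lower without DMSO replicate 1. Ms4a2 had no value under the filter of 5 CPM. Fcer1g stayed between -0.14 and -0.12, with an adjusted p of 0.878 to 1.00, although limma gave an unadjusted p of 0.0382 on log2(FPKM + 1), 0.0398 on log2(FPKM + 0.1) and 0.0197 without a filter. Fcgr2b stayed between -0.27 and -0.17, with an adjusted p of 0.0875 with the replicate block and up to 1.00 in the others. The ratio of receptor to machinery between groups, 0.924, was 1.03 without Fcer1g, 0.931 from CPM sums, 0.923 without Lyn, 0.924 with the replicate block and 0.910 to 0.937 with a library left out. Scaling by TMM cancels within a library and left it at 0.924. Depth limits Fcer1a, whose floor of 3 reads was 0.162 to 0.185 FPKM, and Ms4a2, with at most 79 reads. The cause of the changes in these counts was not tested.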
